A study of Mus musculus with 8 samples.

Results

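The Schlafen genes encode a family of growth-regulatory proteins. The 8 protein-coding members annotated in the mouse (Slfn1, Slfn2, Slfn3, Slfn4, Slfn5, Slfn8, Slfn9 and Slfn14) were followed in sorted fetal liver cells. These cells came from wild type embryos and from embryos that lack 2 lipid transfer proteins. The study describes most of the cells as erythroid precursors. The members are defined by their symbol and not by a threshold on a measured value, although the family was picked with earlier results of these data known. They are 8 of the 52636 gene identifiers in the count table. Of the 8, 6 passed the filter on low counts, as did 17378 genes in all. RNA sequencing was done on S0 cells of E12.5 fetal livers, which were sorted as negative for lineage markers (CD3e, CD4, CD8a, B220, CD127, CD11b and Ly6G/Ly6C) and negative for CD71 and Ter119. There were 4 wild type (WT) libraries and 4 Vps13a/Vps13c double knockout (DKO) libraries, both on a C57BL/6J background. The DKO combines a Vps13a knockout allele, made from a conditional-ready allele with FLP recombinase and a β-actin-Cre transgene, with a Vps13c knockout allele, so both deletions are constitutive and no cell type is spared. DKO embryos came from crosses in which both parents lacked Vps13c, which yield no WT embryo, and the litters of the WT embryos are not given in the sources used here. The number of embryos behind each library is likewise not given, and p-values measure the spread between these libraries, which may in part be technical.

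Schlafen proteins share a core fold with which several of them bind or cut transfer RNA, and the long members carry an additional helicase-like region. Many members are induced by interferon. In blood cells the family is known for holding lymphocytes and monocytes in quiescence (Slfn2) and, for SLFN14, for inherited platelet disorders in humans and for a role in red cell formation in the mouse.

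All 8 genes lie in 1 cluster on chromosome 11, between bases 82951349 and 83286726 of GRCm38, a span of 335378 bases. Their coding sequences in the GENCODE annotation fall into a short pair (Slfn1 with 1011 bases and Slfn2 with 1134), an intermediate pair (Slfn4 with 1806 and Slfn3 with 1920) and a long set (Slfn5 with 2652, Slfn14 with 2697, and Slfn8 and Slfn9 with 2730 each). The closest relatives are Slfn8 and Slfn9, whose aligned coding bases are 92.7% identical, and Slfn3 and Slfn4, at 92.3%. These copies could share reads. Of all stretches of 75 bases in the exons, 7.0% for Slfn8 and 5.9% for Slfn9 occur also in another Slfn gene, against at most 1.8% for each of the other members and 0 for Slfn1, Slfn5 and Slfn14, so a split of reads between Slfn8, Slfn9 and the pseudogene Slfn10-ps is uncertain to a small extent.

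The promoters are shown because interferon reaches Schlafen genes through short elements before the start site. Each line gives the 250 bases before a RefSeq start site in GRCm38.p6, 5′ to 3′ on the strand of the gene. Capitals mark a match to the core of the interferon-stimulated response element (GAAA, then any pair of bases, then GAAA, searched on both strands). The first 3 are the promoters that hold a match, and the last is that of Slfn3, of which every DKO library held less than any WT library. They are the windows chr11:82951852-82952101 (Slfn5, + strand), chr11:82991831-82992080 (Slfn9, − strand), chr11:83020811-83021060 (Slfn8, − strand, the first of 2 windows listed) and chr11:83191080-83191329 (Slfn3, + strand).
Slfn5: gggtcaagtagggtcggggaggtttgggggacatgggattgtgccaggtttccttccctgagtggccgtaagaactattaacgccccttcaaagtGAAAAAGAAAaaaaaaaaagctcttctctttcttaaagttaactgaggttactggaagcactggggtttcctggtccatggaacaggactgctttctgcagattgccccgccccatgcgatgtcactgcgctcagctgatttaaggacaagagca
Slfn9: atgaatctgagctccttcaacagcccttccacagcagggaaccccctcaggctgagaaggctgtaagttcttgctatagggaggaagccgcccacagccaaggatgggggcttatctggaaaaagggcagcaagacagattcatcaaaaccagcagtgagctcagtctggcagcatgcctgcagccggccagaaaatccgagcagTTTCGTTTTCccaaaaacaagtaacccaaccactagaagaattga
Slfn8: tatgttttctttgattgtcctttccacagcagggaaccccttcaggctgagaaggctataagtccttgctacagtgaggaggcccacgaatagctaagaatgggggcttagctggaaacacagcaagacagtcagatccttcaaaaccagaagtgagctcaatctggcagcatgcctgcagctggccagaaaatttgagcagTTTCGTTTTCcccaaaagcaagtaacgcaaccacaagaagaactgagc
Slfn3: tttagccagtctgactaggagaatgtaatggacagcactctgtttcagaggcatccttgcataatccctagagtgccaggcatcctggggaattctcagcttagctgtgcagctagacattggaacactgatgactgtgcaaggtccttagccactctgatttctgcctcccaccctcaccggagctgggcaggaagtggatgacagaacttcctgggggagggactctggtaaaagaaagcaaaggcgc

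The table held 9 windows, which matched all 8 members. The element core was found in 3 of the 8 members and in 3.4% of the 32851 promoters of the table. It begins 155 bases before the RefSeq start in Slfn5, on the strand of the gene. The Slfn5 window lies past the GENCODE start of that gene, at base 82951349, and so within the gene as annotated there. In the printed windows of Slfn9 and Slfn8 the core begins 45 and 48 bases before the start, on the opposite strand and with the same 10 letters in both. The aligned bases of these 2 promoters are 85.1% identical. The second Slfn8 window, which overlaps the first, also holds the core, beginning 136 bases before its start. The gamma-activated sequence (TTCNNNGAA) was found in 0 members and 8.3% of all promoters, a PU.1 site (GAGGAAGT) in 0 members and 3.2%, and a GATA site (AGATAA) in 1 member, Slfn9, and 11.2%. These matches describe letters in a window and not bound sites.

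Libraries held 42114489 to 50886469 counts in WT and 36981439 to 42587815 in DKO. Vps13a fell, from 1943 ± 130 normalized counts to 794 ± 194 (SD, n = 4 each, log2 fold change -1.29, edgeR adjusted p = 0.00247), whereas means of 583 ± 74.9 for WT and 816 ± 279 for DKO were found for Vps13c (edgeR adjusted p = 0.182), so its transcript level does not check the labels. All 4 WT libraries held Y-linked Ddx3y (2911 to 3354 normalized counts) and little Xist (0 to 30.1), and of the DKO libraries only replicate 3 resembled them (2516 of Ddx3y and 62.3 of Xist, against at most 41.0 of Ddx3y and at least 18029 of Xist in the other 3). Sex is thus largely confounded with genotype, and the parts of the 2 in any Schlafen difference cannot be told apart beyond the values given for DKO replicate 3. Erythroid markers summed to 29863 to 34483 in WT and 27146 to 41972 in DKO over the 8 genes tested. Markers of other cells were also present, and those called were all lower in DKO. They were 5 of 8 tested neutrophil and monocyte genes (sum 103794 to 135267 in WT and 5399 to 45799 in DKO, most of it Mpo), 2 of 9 macrophage genes (5361 to 7493 and 1038 to 2932, with Cd163 at 0), 2 of 6 T and NK cell genes (1941 to 2192 and 593.7 to 1302, with Cd8a at 0), 1 of 8 megakaryocyte genes (59380 to 69192 and 41661 to 118804) and 1 of 7 endothelial genes (2752 to 3623 and 1660 to 1999). The 4 B cell genes tested summed to 1147 to 1459 and 518 to 1037. The 7 hepatoblast genes summed to 442785 to 616752 in WT and 146925 to 534071 in DKO. In these bulk samples fewer cells of a type and less RNA per cell cannot be told apart.

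None of the 6 Schlafen genes tested was called, where a call needed both an edgeR adjusted p under 0.05 and a change beyond 1 on the log2 scale. The background was 6.19% of all genes tested called higher in DKO and 2.43% called lower. Without the fold requirement the count among the Schlafen genes was also 0 in both directions, against 10.7% of all genes higher and 10.8% lower. At an unadjusted p under 0.05 it was 1 higher (Slfn5) and 1 lower (Slfn3), against 18.4% and 17.8% of all genes. DESeq2, the tool that the study itself used with the same 2 thresholds, called both of these, 1 in each direction. The absence of calls thus holds for the main edgeR fit and not for the method of the study. Other edgeR settings also called a member. Slfn5 was called with upper-quartile scaling (edgeR adjusted p = 0.0483). Slfn3 was called with a minimum of 10 counts in every library (edgeR adjusted p = 0.047) and without DKO replicate 3 (edgeR adjusted p = 0.0391). For the same 2 genes, 1 higher and 1 lower, no DKO library fell within the WT range, where 13.5% of all genes were separated with DKO higher and 14.6% with DKO lower. The fold change was below 0 for 3 of the 6, against 47.4% of all genes, with a median log2 fold change of -0.10 over the 6 and 0.03 over all genes.

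**Figure D1:**
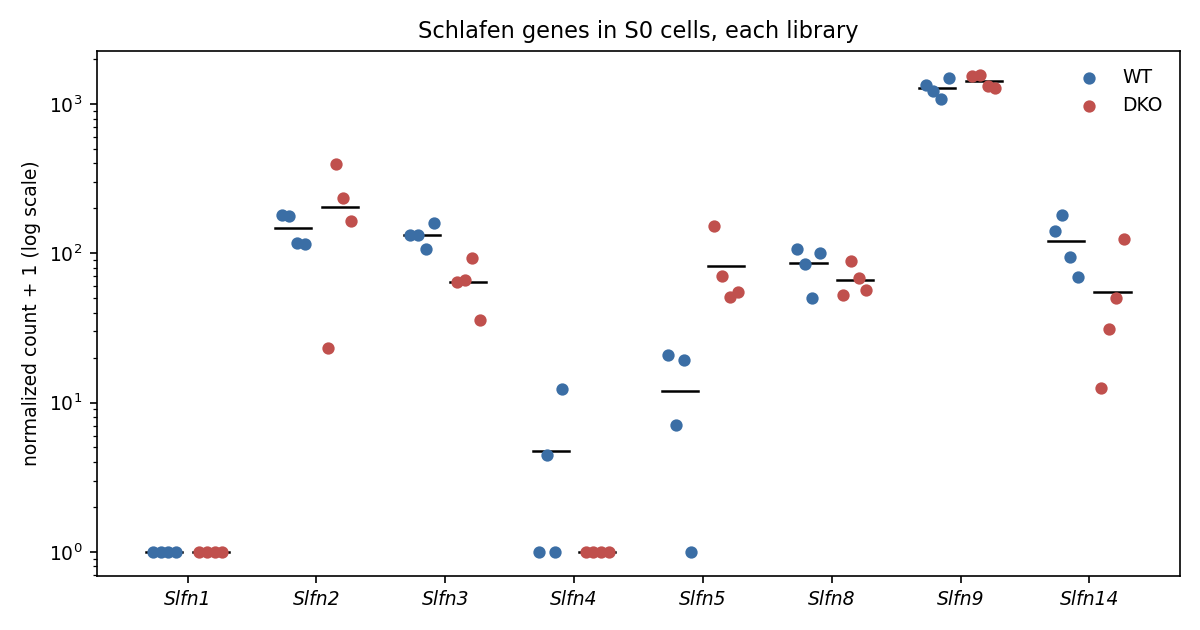
Normalized counts plus 1 (log axis) of the 8 Schlafen genes in each library, blue for the 4 WT and red for the 4 DKO libraries, with a bar at the arithmetic mean of each group. The WT and DKO points are apart for Slfn5 (DKO higher) and Slfn3 (DKO lower), and they overlap for Slfn9, Slfn2, Slfn8 and Slfn14.

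Among the long members, Slfn5 showed the largest difference of the family in size. Slfn5 is a nuclear member of the long set. It had 19.9, 6.02, 18.2 and 0 normalized counts in WT replicates 1 to 4, from 19, 7, 21 and 0 reads. In DKO replicates 1 to 4 it had 152, 69.7, 50.1 and 54.3, from 145, 60, 41 and 52 reads. Every DKO library lay above every WT library, and DKO replicate 1 was the highest by more than 2-fold. The group means were 11.04 ± 9.62 for WT and 81.6 ± 47.9 for DKO (SD, n = 4 each). The log2 fold change was 2.88 with an SE of 0.93 and a 95% interval of 0.80 to 4.96, a fold of 7.37, and its edgeR adjusted p of 0.0531 missed the threshold. The exact two-sided permutation test gave p = 0.0286, the smallest that 70 arrangements of 4 against 4 allow. With sex as a covariate the log2 fold change was 2.18 (edgeR adjusted p = 0.333), and the 1 DKO library with Y-linked transcripts had the lowest Slfn5 count of the 4.

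Slfn9 was the most abundant member per kilobase of exon in every library, and its genotypes differed little. Little is known of its own role, and as a long member it has the helicase-like region. Its normalized counts were 1341, 1215, 1080 and 1489 in the WT libraries, and 1547, 1575, 1327 and 1276 in the DKO libraries. The 2 sets of libraries overlapped, with means of 1281 ± 175 and 1431 ± 152 (SD, n = 4 each). The log2 fold change was 0.16 with an SE of 0.13 (edgeR adjusted p = 0.411), and the 95% interval of -0.13 to 0.45 was the narrowest of the 6.

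Slfn8, the close copy of Slfn9, was scarcer, at 20.7 normalized counts per kilobase of exon in WT against 215 for Slfn9. The WT libraries had 106, 84.3, 49.5 and 98.8 normalized counts of it, and the DKO libraries 51.5, 88.3, 67.2 and 55.4. The groups overlapped, and the log2 fold change of -0.37 had a 95% interval of -1.20 to 0.46 (edgeR adjusted p = 0.518). The log2 ratio of Slfn8 to Slfn9 within a library was -3.95 ± 0.33 for WT and -4.45 ± 0.32 for DKO (SD, n = 4 each), which is a difference of -0.50 (exact permutation p = 0.0857, adjusted p = 0.129 over 15 pairs). The promoters of both, printed above, hold the same element core, and neither gene was called.

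Slfn14, a ribosome-associated endoribonuclease, stood at 140, 179, 93.8 and 68.2 normalized counts in the WT libraries and at 11.6, 30.2, 48.8 and 124 in the DKO libraries. DKO replicates 1 to 3 lay below every WT library, and DKO replicate 4 lay above 2 of them. The means were 120 ± 49.2 and 53.7 ± 49.5 (SD, n = 4 each). The log2 fold change was -1.16 with an SE of 0.65 (95% interval -2.62 to 0.30, edgeR adjusted p = 0.234), and the exact permutation p was 0.0857. DKO replicate 4 decided its size, since leaving it out moved the estimate to -1.997 on the log2 scale (edgeR adjusted p = 0.0501).

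**Figure D2:**
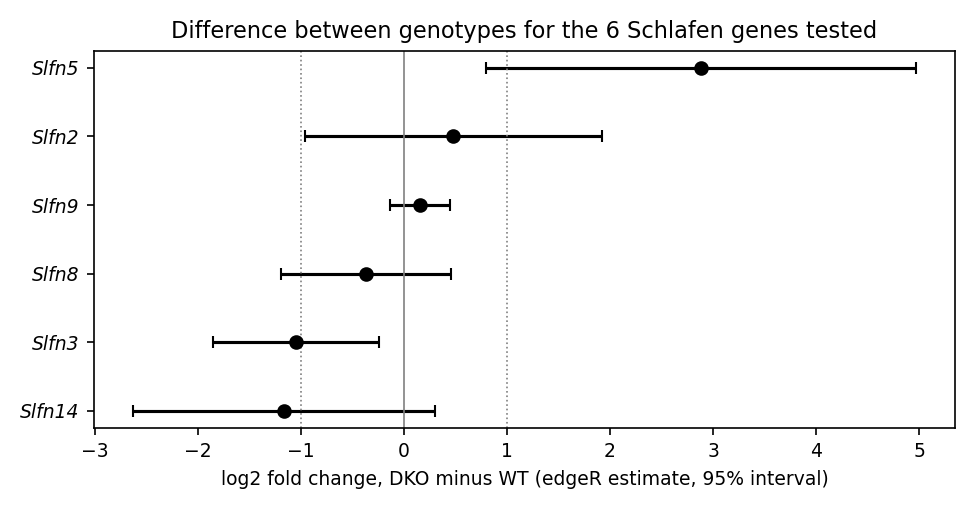
Log2 fold change of DKO against WT for the 6 Schlafen genes tested (points, edgeR estimate) with 95% intervals (bars) and a line at 0. The intervals of Slfn5 (0.80 to 4.96) and Slfn3 (-1.85 to -0.25) leave out 0, before adjustment for all genes tested, and that of Slfn9 is the narrowest.

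Of the intermediate pair, Slfn3 was lower in DKO and Slfn4 was hardly detected. Slfn3 is known from the differentiation of intestinal cells. The WT libraries had 131, 131, 105 and 158 normalized counts, and the DKO libraries 63.0, 65.1, 91.6 and 34.5. All 4 DKO libraries lay below all 4 WT libraries, by 105 against 91.6 at the nearest pair. The means were 131 ± 21.7 and 63.6 ± 23.3 (SD, n = 4 each). The log2 fold change was -1.05 with an SE of 0.36 and a 95% interval of -1.85 to -0.25 (edgeR adjusted p = 0.0649, exact permutation p = 0.0286). The 1 DKO library with Y-linked transcripts, replicate 3, was the one nearest to WT, and with sex as a covariate the log2 fold change was -0.52 (edgeR adjusted p = 0.604). Without DKO replicate 3 it was -1.27, and the edgeR adjusted p of 0.0391 then passed. That fit holds no DKO library with Y-linked transcripts at the WT level, so in it sex and genotype cannot be told apart at all. Slfn4, a gene of myeloid cells, had 4 reads in WT replicate 2 and 13 in WT replicate 4, and 0 in the other 6 libraries. It was not tested, and a count of 0 allows up to 3 counts of a library, or 0.059 to 0.0811 counts per 1e+06, which covers counting error only.

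Of the short pair, Slfn2 varied widely among DKO libraries and Slfn1 was not detected. Slfn2, which protects transfer RNA from cleavage and holds lymphocytes and monocytes in quiescence, had 179, 178, 116 and 114 normalized counts in WT. In DKO it had 22.1, 398, 236 and 164. DKO replicate 1 was the lowest of all 8 libraries and DKO replicate 2 the highest, so the DKO range enclosed the WT range. The means were 147 ± 36.97 and 205 ± 156 (SD, n = 4 each), with a log2 fold change of 0.48 and a 95% interval of -0.96 to 1.92 (edgeR adjusted p = 0.635). Its direction rested on single libraries, at -0.065 without DKO replicate 2 (edgeR adjusted p = 0.957) and 0.86 without DKO replicate 1 (edgeR adjusted p = 0.107). The noncoding gene Gm20234 overlaps Slfn2 on the other strand, at a mean of 3.44 normalized counts for WT and 24.1 for DKO (edgeR adjusted p = 0.104). Whether the counting used strand is not given in the sources used here, and without strand the reads of these 2 genes cannot be told apart. Slfn1, a gene of developing T cells, had 0 reads in all 8 libraries, under the same limit as Slfn4.

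Levels of different members were compared per kilobase of exon. In WT the order was Slfn9 (215 ± 29.3 normalized counts per kilobase), Slfn2 (88.1 ± 22.2), Slfn3 (38.5 ± 6.36), Slfn14 (32.5 ± 13.3), Slfn8 (20.7 ± 6.12), Slfn5 (1.75 ± 1.52), Slfn4 (0.934) and Slfn1 (0), with SD and n = 4. The ranges over libraries overlapped between Slfn3 and Slfn14, between Slfn14 and Slfn8, and between Slfn5 and Slfn4, and were apart for the other neighbours above Slfn4. In DKO the order was Slfn9 (240 ± 25.4), Slfn2 (123 ± 93.8), Slfn3 (18.6 ± 6.84), Slfn8 (16.0 ± 4.05), Slfn14 (14.5 ± 13.4) and Slfn5 (12.9 ± 7.57), with the last 2 genes at 0. There the ranges of all neighbours down to Slfn5 overlapped. The range of Slfn5 was apart from those of Slfn3, Slfn8 and Slfn14 in WT and overlapped them in DKO, where its mean was higher and the means of those 3 were lower than in WT, with none of the 4 called.

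Slfn9 held 51.4, 48.5, 56.3 and 60.9% of the per-kilobase total of the family in the WT libraries and 78.4, 46.9, 51.9 and 56.5% in the DKO libraries. Slfn2 held 24.6, 25.5, 21.6 and 16.7% in WT and 4.01, 42.4, 33.1 and 26.1% in DKO. DKO replicate 1 stood apart in both, with the highest share of Slfn9 and the lowest of Slfn2. Slfn5 held at most 0.897% in WT and between 1.85 and 7.28% in DKO. The total itself differed by 0.08 on the log2 scale, from 397 ± 51.8 normalized counts per kilobase in the WT libraries to 425 ± 100 in the DKO libraries (SD, n = 4 each).

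**Figure D3:**
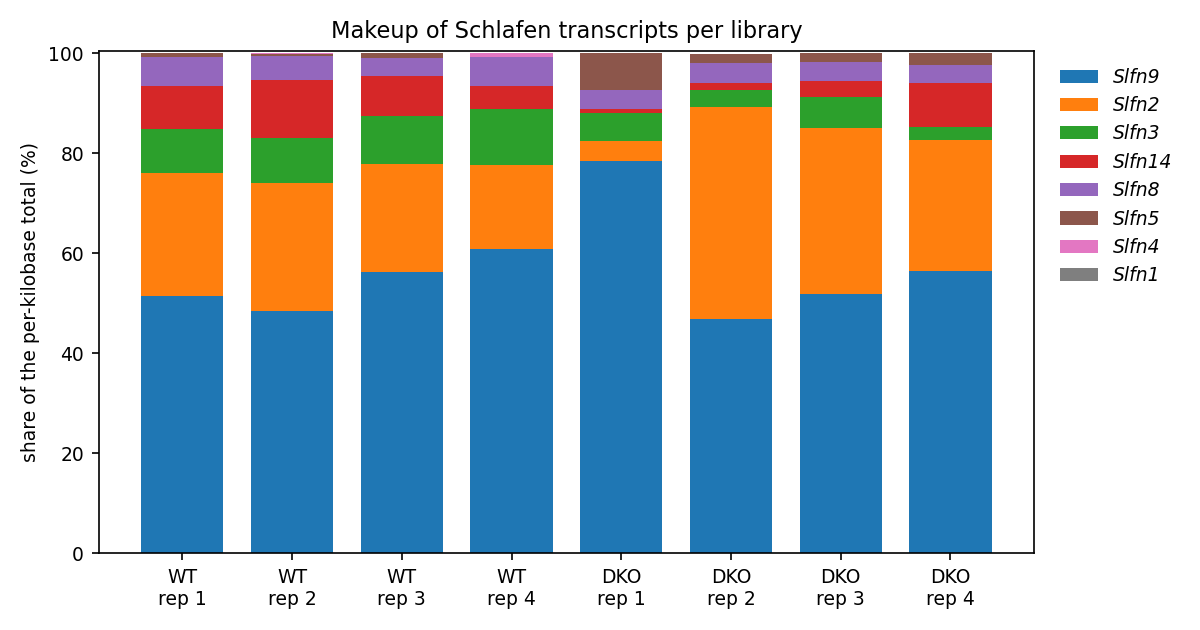
Share of the per-kilobase Schlafen total held by each gene (stacked bars, %) in each of the 8 libraries. Slfn9 takes the largest share in every library, from 46.9 to 78.4%, and Slfn2 falls to 4.01% in DKO replicate 1.

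Whether members differed between genotypes by unlike amounts was tested on the log2 ratio of 2 members within a library, over the 15 pairs of the 6 genes tested. After adjustment over the pairs 0 had an adjusted p under 0.05, and 6 pairs reached the smallest exact permutation p of 0.0286 (adjusted p = 0.0715). With 4 libraries against 4, an adjusted p under 0.05 would have needed 9 of the 15 pairs at that smallest p, so the count of 0 is largely set by the design. All 6 held Slfn5 or Slfn3. The ratio of Slfn3 to Slfn9 was the tightest of them in WT, at -3.28 ± 0.077, and was -4.55 ± 0.54 for DKO (SD, n = 4 each), lower in 4 of 4 DKO libraries. The ratio of Slfn5 to Slfn9 was -7.45 ± 2.19 in WT and -4.26 ± 0.62 in DKO, higher in 4 of 4. The ratio of Slfn3 to Slfn5 differed by -4.45. The wide WT spread of the ratios to Slfn5 came with its 0 to 21 reads in those libraries.

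The cluster was then set beside its genomic neighbours. Within 1000000 bases of its ends lie 83 other annotated genes, of which 36 were tested, and 1 was called higher and 2 lower, with a median log2 fold change of -0.06. These counts lie near the shares over all genes tested, 6.19% higher and 2.43% lower, with a median of 0.03. Ccl5, a chemokine gene, rose from 12.3 to 1015 normalized counts (log2 fold change 6.33, edgeR adjusted p = 0.000485). Ccl9, another chemokine gene, fell from 2364 to 545 (log2 fold change -2.12, edgeR adjusted p = 0.00619), and Lig3, a DNA ligase gene, from 3577 to 1736 (log2 fold change -1.04, edgeR adjusted p = 0.00531). The nearest genes outside the cluster, Unc45b, 7946 bases before it, and AA465934, 4973 bases after it, were not called. Unc45b, a myosin chaperone gene, had 12.4 and 44.6 normalized counts (edgeR adjusted p = 0.323), and AA465934 had 94.1 and 153 (edgeR adjusted p = 0.130).

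**Figure D4:**
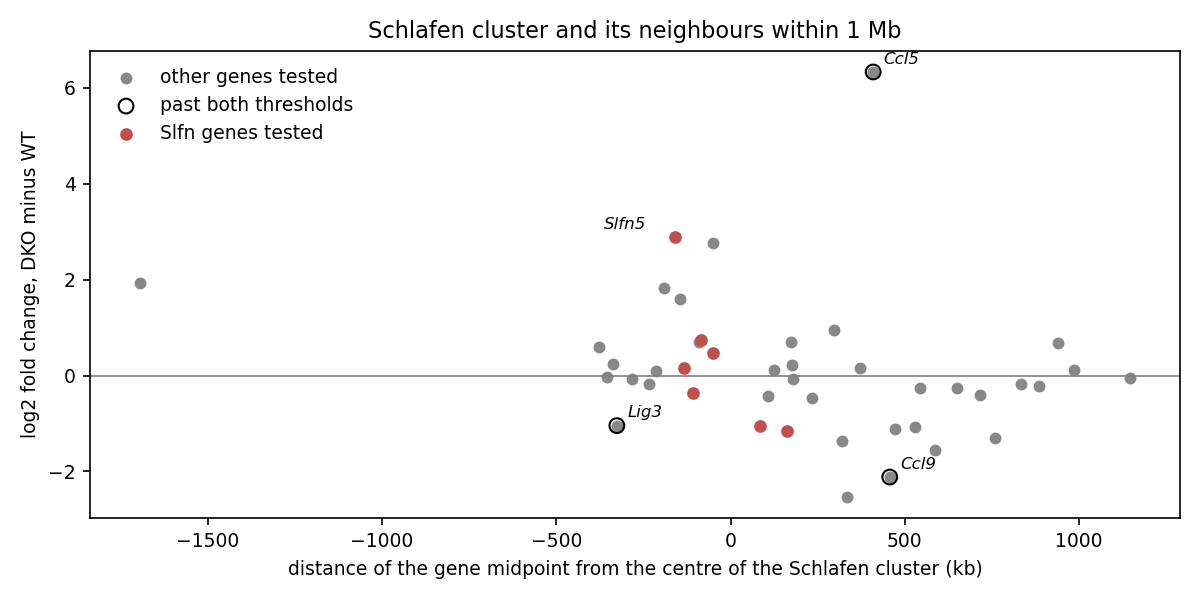
Log2 fold change of DKO against WT (vertical) by the distance of a gene's midpoint from the centre of the Schlafen cluster in kilobases (horizontal), red for Schlafen genes, grey for other tested genes and circles for genes past both thresholds. The 3 circled genes are Ccl5 at 6.33, Ccl9 at -2.12 and Lig3 at -1.04, all outside the cluster.

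Of the 19 interferon signalling genes listed, the receptors, kinases, factors and brakes that stand before Schlafen genes, all were tested. There were 4 called higher and 2 lower, with a median log2 fold change of -0.52, against 6.19% and 2.43% of all genes tested and a median of 0.03. Without the fold requirement 6 were higher and 9 lower, against 10.7% and 10.8% of all genes. The genes that rose were Irf7, a factor that is itself induced by interferon (194 ± 142 to 1948 ± 1268 normalized counts, log2 fold change 3.34, edgeR adjusted p = 0.00531), Usp18, a brake on the receptor (444 to 2307, log2 fold change 2.38, edgeR adjusted p = 0.00143), Socs3 (log2 fold change 1.55, edgeR adjusted p = 0.00686) and Socs1 (log2 fold change 1.42, edgeR adjusted p = 0.0179). The latter 2 are also brakes. Irf8, a factor of myeloid cells (log2 fold change -1.79, edgeR adjusted p = 0.0251), and Irf5 (log2 fold change -1.01, edgeR adjusted p = 0.0101) fell. Of the 3 genes with the highest means, the kinase gene Jak1 had 7497 and 4770 (log2 fold change -0.65, edgeR adjusted p = 0.00348), the receptor gene Ifngr1 had 6237 and 4076 (log2 fold change -0.61, edgeR adjusted p = 0.00749), and Irf3 had 4497 and 4517 (edgeR adjusted p = 0.970).

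Of the 15 symbols listed for transfer RNA cleavage and ribosome rescue, the process on which Schlafen proteins act, 14 were in the table and tested (the missing one is a second symbol of Gcn1l1). edgeR called 0 in either direction, as did DESeq2, with a median log2 fold change of -0.16. At an unadjusted p under 0.05 there were 2 higher and 4 lower, against 18.4% and 17.8% of all genes. The same numbers passed at an adjusted p under 0.05 without the fold requirement, against 10.7% and 10.8%. The 3 genes with the highest means were Abce1, which recycles ribosomes (11918 and 8272 normalized counts, log2 fold change -0.53, edgeR adjusted p = 0.0157), Rnh1, the inhibitor of angiogenin-type ribonucleases (6379 and 5196, log2 fold change -0.30, edgeR adjusted p = 0.0323), and Nemf, of the ribosome quality control complex (5222 and 5810, edgeR adjusted p = 0.157).

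Values of other genes that stood beside 3 members are given as description, and these pairs were chosen after their values were seen. Slfn5 was highest in DKO replicate 1, the library with the most Irf7. Irf7 had 404, 98.1, 122 and 150 normalized counts in WT replicates 1 to 4 and 3815, 1021, 1610 and 1348 in DKO replicates 1 to 4. From highest to lowest, the DKO replicates ran 1, 2, 4, 3 for Slfn5 and 1, 3, 4, 2 for Irf7. Outside replicate 1 the orders were thus opposite. Slfn2 was lowest in DKO replicate 1, where the neutrophil and monocyte marker sum was 5399, against 45799, 30812 and 34431 in DKO replicates 2, 3 and 4. Most of that sum is 1 gene, Mpo, with a mean of 108147 normalized counts in the WT libraries and 3829, 36256, 24386 and 27520 in DKO replicates 1 to 4. S100a8, of the same list, had means of 40.1 for WT and 110 for DKO (edgeR adjusted p = 0.235). The link is not particular to this list, since the macrophage, T and NK cell and B cell sums were also lowest in DKO replicate 1 (1038, 593.7 and 518). The erythroid, megakaryocyte, endothelial and hepatoblast sums were lowest in other DKO libraries. Among DKO libraries the order of Slfn2 was 2, 3, 4, 1, as was that of the T and NK cell sum. The neutrophil and monocyte sum had the order 2, 4, 3, 1. Yet every WT library had more of the neutrophil and monocyte markers than any DKO library, and no WT library had as much Slfn2 as DKO replicate 2. Slfn14 was highest among DKO libraries in replicate 4, where the megakaryocyte marker sum was 118804, against 47274, 41661 and 94397 in replicates 1, 2 and 3 and 59380 to 69192 in WT. The part of these genes or cells in the Schlafen values was not tested.

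**Figure D5:**
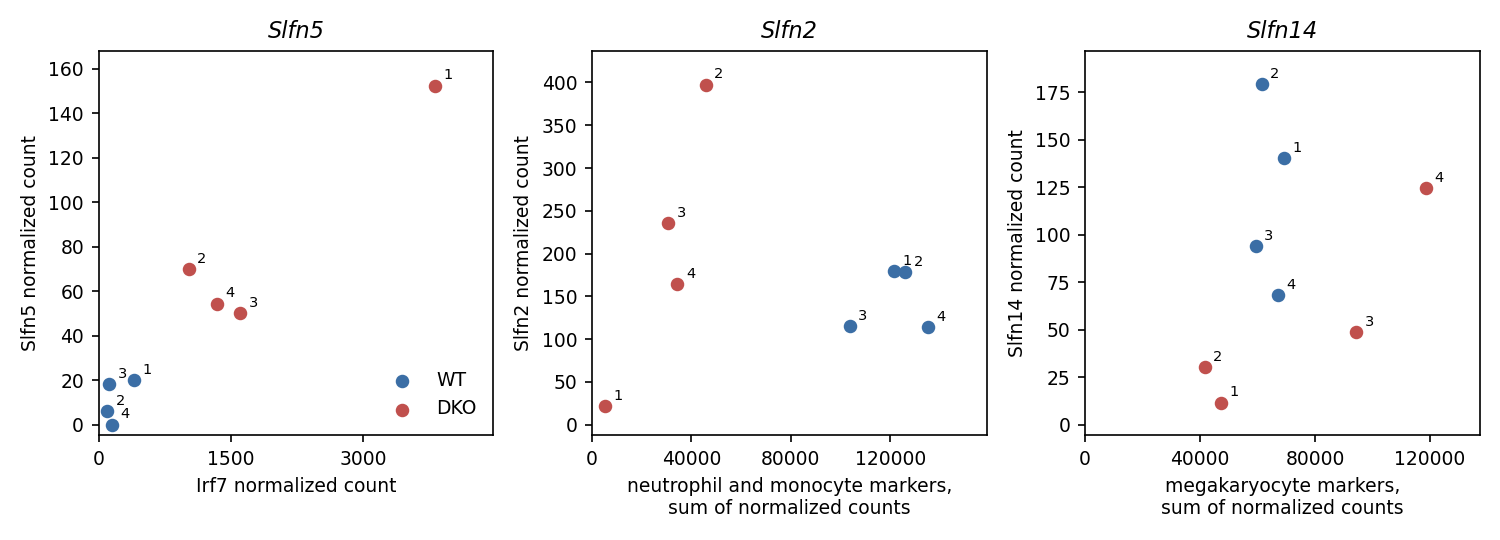
Normalized count of Slfn5 against Irf7 (left), of Slfn2 against the summed neutrophil and monocyte markers (middle) and of Slfn14 against the summed megakaryocyte markers (right), 1 point per library, blue WT and red DKO, numbered by replicate. DKO replicate 1 is highest in Slfn5 and Irf7 and lowest in Slfn2 and the neutrophil and monocyte sum. Among the other DKO libraries the orders of Slfn5 and Irf7 are opposite.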

How the data were processed

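RNA was amplified from polyadenylated transcripts with a low-input template-switching kit. Per the labels and the methods of the study, reads were trimmed with fastp 0.21.0 and aligned to mm10 with HISAT2 2.2.1, and counts per gene were derived by the authors with StringTie 1.3.3b and its prepDE script, which works counts back from coverage. The deposited counts are not normalized. Groups came from the sample labels.

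Genes were filtered with filterByExpr, scaled by TMM and tested with the robust quasi-likelihood test of edgeR 4.0.16 (R 4.3.3) with Benjamini-Hochberg adjustment, with a call at adjusted p under 0.05 and a change beyond 1 on the log2 scale. Normalized counts are counts over the effective library size, times the mean effective library size of 43914336. Log2 values of single genes and ratios used a pseudocount of 1, and permutation tests were exact and two-sided. DESeq2 (here version 1.42.0), which was the test of the study, was an alternative, as were other scalings, filters and left-out libraries. At the depth of 36981439 counts or more per library, the members other than Slfn9 rested on few reads in some libraries, down to 11 for Slfn14, 21 for Slfn2 and 33 for Slfn3, so counting error adds to their spread. Libraries were no duplicates of each other (chi-square per gene of 18.8 or more).

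Coordinates are from GENCODE M21 (GRCm38, the same assembly as mm10), and promoters from RefSeq. The genes named are the members, other Slfn genes, the targeted and sex-linked genes, and the called, nearest or most abundant genes of each list. The rule for genes with the most similar pattern applied to called members and so named none. The members and lists were chosen with earlier results of these data known.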

Additional observations from a re-analysis of the deposited data

How the results depend on the processing

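Calls in the family depended on the tool and the filter. DESeq2 called 1 Schlafen gene higher (Slfn5, 2.88, adjusted p = 0.0059) and 1 lower (Slfn3, -1.06, adjusted p = 0.0141). Upper-quartile scaling in edgeR called 1 higher (Slfn5, 2.99, adjusted p = 0.0483), with a shift of the median over all genes from 0.03 to 0.14 (log2), and a minimum of 10 counts in every library called 1 lower (Slfn3, -1.03, adjusted p = 0.047) and left Slfn5 untested. Leaving out single libraries gave 0 to 0 higher and 0 to 1 lower, with log2 fold changes of 2.39 to 3.31 for Slfn5 (edgeR adjusted p from 0.0505 to 0.137), -1.27 to -0.84 for Slfn3, -0.065 to 0.86 for Slfn2, -1.997 to -0.83 for Slfn14, -0.56 to -0.24 for Slfn8 and 0.080 to 0.23 for Slfn9. The reversal of Slfn2, to -0.065, came without DKO replicate 2. Over all genes, the 1076 called higher became 1651 with DESeq2, 613 with a replicate block, 273 with sex as a covariate, 1867 without the fold requirement and 566 to 1148 without single libraries, and the 423 called lower became 1878 without the fold requirement and 243 to 521 without single libraries. Genes beside the cluster called higher numbered 0 at the 10-count minimum, which left Ccl5 untested (4.19 normalized counts in WT replicate 1). Those called lower numbered 5 with DESeq2, 1 with upper-quartile scaling, 1 with the sex covariate and 1 to 3 without single libraries. Interferon signalling genes called higher numbered 2 with the sex covariate and 3 to 6 without single libraries, and those called lower 1 with upper-quartile scaling, 1 at the 10-count minimum, 9 without the fold requirement and 0 to 2 without single libraries. Of the transfer RNA and ribosome rescue genes, 2 higher and 4 lower passed without the fold requirement, and 0 to 1 higher without single libraries. The WT level of Slfn3 was 46.3 per kilobase of its longest transcript, against 38.5 per kilobase of all exons. With a pseudocount of 5, chosen after seeing the data, as were the alternatives on the lists, 0 of the 15 ratios passed, with 5 pairs at the smallest p where 9 would have been needed. Apart from the genes that a filter left untested, the cause of these shifts was not tested.

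Same-numbered libraries did not deviate together over all genes (correlations of -0.0893 to 0.0433), and the numbers were not treated as pairs. These correlations were not set beside those of unlike numbers, so they cannot exclude a shared litter or preparation. The numbers follow the sample titles, and most DKO libraries carry other numbers in their library names. A block by these numbers may thus join unrelated libraries. With the replicate block the log2 fold change was 3.32 for Slfn5 (edgeR adjusted p = 0.0732), -1.10 for Slfn3 (0.145 likewise), -1.55 for Slfn14 and 0.13 for Slfn2.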

Other observations

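Other transcripts of the cluster were also measured. The pseudogene Slfn10-ps averaged 44.4 ± 16.8 normalized counts for WT and 73.9 ± 23.0 for DKO (SD, n = 4 each, log2 fold change 0.73, edgeR adjusted p = 0.255). Slfn5os, which lies antisense to Slfn5, and the Schlafen-like gene Slfnl1, on chromosome 4, had 0 reads in all 8 libraries. AI662270, a noncoding gene between Slfn3 and Slfn14 that was singled out after its values were seen, stood at 7926, 7528, 7421 and 7304 normalized counts in the WT libraries and at 2643, 7216, 7679 and 4951 in the DKO libraries (edgeR adjusted p = 0.294), and it overlaps Gm11427 on the same strand, so their reads are uncertain. Of the 13 groups of 4 libraries that were not all at 0, none passed Dixon's 95% limit for a library apart from the others, and the nearest was Slfn5 in DKO, with a gap of 0.808 of the group's range.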
